A study of Mus musculus with 6 samples.

Results

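Isolated SALL4 regions were places on mouse chromosomes 1 to 19 where SALL4 was called in both wild-type libraries and nothing else was called nearby. There were 787 of them among 36443 consensus regions on these chromosomes and 37997 in the whole series. A consensus region was a stretch called in both wild-type peak lists, overlapping by at least 1 bp, and in neither knockout list. Its members were chosen by measured positions, namely no other interval of either wild-type list within 100 kb on each side, together with a protein-coding gene within 300 kb. Before the gene condition, 1000 regions met the distance limit. The other 35656 consensus regions of chromosomes 1 to 19 served as the comparison.

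The libraries came from CUT&RUN, a method that sends a nuclease to an antibody's target inside opened cells and sequences the DNA cut free there. Mouse embryonic stem cells of genotype Sall4 F/F (a floxed but intact gene, called WT in the titles) and Sall4-/- (called KO) were both grown in 2i + LIF, a mix of kinase inhibitors plus LIF, a cytokine, that holds such cells in the undifferentiated state. Each genotype was 1 line with 2 SALL4 libraries, which gave 4 peak lists, and 1 IgG sample per line was not analysed here. Nothing in the labels says whether replicates were separate cultures, so the spread between them may be technical. A peak list holds no expression values, so the labelled cell type could not be checked against marker genes. For the IgG samples the antibody label reads SALL4, under a different catalogue number, and the peak names of WT replicate 2 mix the letters of both genotypes. The titles were followed in both cases.

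The WT lists held 55058 intervals in replicate 1 and 48295 in replicate 2, and the KO lists held 34 and 39, of which 0 lay on chromosomes 1 to 19. No consensus region on these chromosomes was therefore removed by the KO lists, and the isolated regions have no KO value beyond their absence from those lists. The number of fragments sequenced per library is unknown, but the pileup at a summit, the number of fragments stacked there, was recovered from the deposited values. Its median was 9 in each WT list.

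SALL4 is a zinc-finger transcription factor of early embryos, germ cells and embryonic stem cells. Its zinc fingers prefer short A- and T-rich DNA, and its N-terminal end recruits the NuRD complex, which removes acetyl groups from histones and remodels nucleosomes. In embryonic stem cells it is known for restraining genes of differentiation, neural genes among them, and for its place among the pluripotency regulators. Sites of such a factor often lie in groups at enhancers. A site without neighbours is one that no other called site accompanies over a long stretch of the chromosome.

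Few isolated regions lay at annotated starts, so only a few sequences could be shown for them. Of the 754 isolated regions on chromosomes with promoter windows (250 bases before to 50 after each transcript start, RefSeq, GRCm38.p6), 5 shared at least 1 base with a window. That was 0.663% (95% Wilson interval 0.284 to 1.54%), against 2.38% of the other consensus regions. The 3 whose summit lay within the window are printed 5′ to 3′ on the strand of the transcript, to show what the isolated sites at starts look like. The first was shared with the long non-coding RNA Gm46958 (chr6:48676760-48676897, minus strand), which overlaps Gimap9, a GTPase gene of lymphocytes. The next lay before Elmo2, a regulator of Rac and cell engulfment (chr2:165326528-165326729, minus strand). The last lay before a start inside Hdac9, a class IIa histone deacetylase gene (chr12:34528915-34529034, minus strand). Capitals mark ATATT or its reverse complement AATAT.
Gm46958: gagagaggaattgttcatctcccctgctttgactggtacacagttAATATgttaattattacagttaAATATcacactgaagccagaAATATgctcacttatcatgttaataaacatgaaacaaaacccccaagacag
Elmo2: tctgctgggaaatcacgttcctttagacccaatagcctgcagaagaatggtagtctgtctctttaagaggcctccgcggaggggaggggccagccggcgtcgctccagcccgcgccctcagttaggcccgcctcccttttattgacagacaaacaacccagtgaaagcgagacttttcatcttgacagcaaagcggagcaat
Hdac9: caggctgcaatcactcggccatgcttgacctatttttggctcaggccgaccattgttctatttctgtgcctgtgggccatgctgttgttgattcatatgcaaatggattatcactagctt

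The Gm46958 stretch of 138 bases was 64.5% A+T and held ATATT 3 times over both strands. Over all promoter windows, the same 138 positions had a median A+T content of 44.9%, and 10.7% of them held the motif. The Elmo2 stretch of 202 bases was 44.6% A+T and the Hdac9 stretch of 120 bases 53.3% A+T, and neither held ATATT on either strand. At the same positions 20.7% and 12.0% of all windows held it. The longer motif AATATT, which contains ATATT and is its own reverse complement, was in none of the 3 stretches, and 2.49%, 5.39% and 2.66% of all windows held it at their positions. Such letters are a description of these windows and not of binding. Fold enrichment was the authors' ratio of summit pileup to local background, with 1 added to both. It was 9.15 in WT replicate 1 and 11.8 in replicate 2 at Gm46958. It was 8.26 and 10.9 at Elmo2 and 6.2 and 5.44 at Hdac9. In the Elmo2 and Gm46958 regions the higher value came from replicate 2, and at Hdac9 from replicate 1.

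The degree of isolation varied widely. The nearest other interval lay at a median of 141632 bp and at most 1081185 bp. Of the 787 regions, 358 had no other interval within 150 kb on each side, 172 (21.9%) within 200 kb, 56 within 300 kb, 8 within 500 kb and 1 within 1000 kb. For 6 regions no interval followed on 1 side up to the end of the chromosome. The nearest other interval belonged to a region called in both lists for 464 of the 787, and for the others to an interval of 1 list only. This is close to the general share, since 59.1% of all other regions called in at least 1 WT list were called in both.

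**Figure D1:**
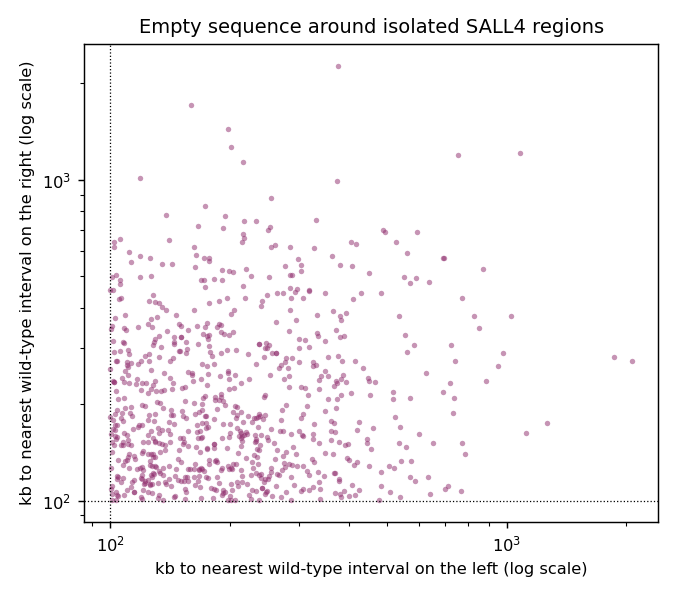
Distance in kb from each isolated region to the nearest other WT interval on its left (x axis) and right (y axis), both axes logarithmic, with dotted lines at the 100 kb limit and 1 point a region. Most points lie close to the limit, with the nearest neighbour at a median of 141632 bp, and the 6 regions without an interval on 1 side are not drawn.

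The most isolated region, chr5:57733577-57733782, was nearest to Pcdh7, a protocadherin gene, with gaps of 1081 kb and 1210 kb. Its fold enrichment was 6.2 in replicate 1 and 9.52 in replicate 2. A region nearest to Fstl5, a follistatin-like gene (chr3:76739322-76739571), had gaps of 751 kb and 1198 kb and fold enrichments of 7.62 and 4.53. The regions nearest to Nell1 (chr7:50580009-50580382) and to the anoctamin gene Ano5 (chr7:51268899-51269226) were each other's neighbours across 689 kb. Their fold enrichments were 5.51 and 3.52 at Nell1 and 5.51 and 4.08 at Ano5. The fifth lay nearest to Maf, a bZIP transcription factor gene (chr8:115896016-115896412), with 12.4 and 8.05. Replicate 2 was the higher at Pcdh7 and replicate 1 at the other regions.

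At the distance limit, the 3 regions just inside lay nearest to Bmp6 (100.1 kb from another interval, fold enrichments 18.6 and 10.9), Naaladl2 (6.76 and 6.67) and Itga11 (5.59 and 6.48). Just outside were regions nearest to Gm14461 (99.947 kb, fold enrichments 6.89 and 8.84), Api5 (6.61 and 5.53) and Cenpw (6.12 and 5.37). The limit cuts a continuous range of distances.

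Isolated regions were slightly weaker and narrower than the others, and the differences were small. The median fold enrichment was 6.89 against 7.11 for the other regions in replicate 1 and 6.38 against 6.54 in replicate 2. On the log2 scale the medians differed by -0.04 ± 0.0085 (SD, n = 2 libraries). The median pileup at the summit was 10 against 11 fragments in replicate 1 and 9 against 10 in replicate 2. The median width was 272 bp against 282 bp in replicate 1 and 245 bp against 268 bp in replicate 2, a mean difference of -16.5 ± 9.19 bp (SD, n = 2). Both libraries gave the same direction for each measure. The exact two-sided sign-flip permutation test over 2 libraries gave p = 0.5 for each of these and the later library-wise differences, which is the smallest it can give, so this test cannot pass 0.05 here. With the other regions weighted to the same strength, the width difference was -3.5 bp.

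**Figure D2:**
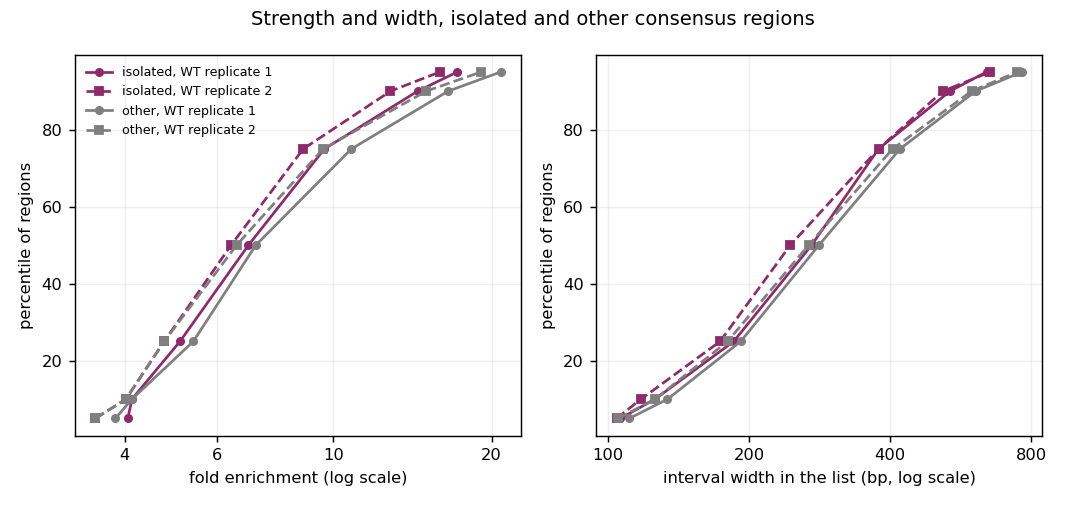
Percentiles from 5 to 95 of fold enrichment (authors' ratio) and width (bp) of isolated and other consensus regions in each WT replicate. The medians nearly coincide (fold 6.89 against 7.11 in replicate 1), and the upper percentiles of the isolated regions lie below those of the other regions.

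The upper end of the range differed more than the middle. A fold enrichment of at least 20 in both lists was reached by 11 isolated regions, 1.40% (95% Wilson interval 0.782 to 2.49%), where 3.73% of the other regions reached it. At least 10 in both lists was reached by 15% of the isolated and 21.2% of the other regions. Regions of 500 bp or more made up 17% of the isolated and 21.3% of the other regions. Of the 100 consensus regions with the best worse rank over both lists, 0 were isolated. Among the top 1000 there were 9, or 0.9%, and among the top 5000 there were 75, or 1.5%, while 2.16% of all were isolated. These shares are counts over regions and carry no test.

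Several summits within 1 region were about as frequent as elsewhere in each library and a little rarer in both together. In replicate 1, 17.3% of the isolated regions held 2 or more summits, against 18.7% of the others. In replicate 2 the shares were 14.6% and 15.6%, and the mean difference was -1.20 ± 0.334 percentage points (SD, n = 2). Both lists gave 2 or more summits in 59 isolated regions, 7.50% (5.86 to 9.55%), where the background over the other regions was 9.61%. A single summit in both lists was found in 75.6% of the isolated and 75.3% of the other regions. In replicate 1, 3 isolated regions (0.381%) had 4 or more summits, against 0.886% of the others. In replicate 2 there were 0 of 787, which allows a share of up to 0.381% (3 counts of the total), against 0.729%. The difference in replicate-wise summit shares turned to 0.701 percentage points in favour of the isolated regions once the others were weighted to the same strength.

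Isolated regions were found again in the other library at nearly the same rate as the rest. Of 1328 union regions with no neighbour within 100 kb and a gene within 300 kb, 787 were called in both lists, 59.3% (56.6 to 61.9%), and 59.1% of the other union regions were. Of the isolated regions called in replicate 1, 70.7% were called in replicate 2, against 69.9% elsewhere. From replicate 2 to replicate 1 the shares were 78.5% and 79.2%. The summits of the replicates lay a median of 35 bp apart in isolated regions and 32 bp in the others, and within 100 bp of each other in 82.5% and 85.1%. Across isolated regions, fold enrichment in the replicates had a Spearman rho of 0.715 over 787 regions, and across the others 0.770 over 35656. These correlations are descriptions over regions of the same pair of libraries, and regions are not replicates. Replicate 2 was lower in 64.9% of the isolated and 65.2% of the other regions.

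The local background that the caller used differed between the sets. It sat at the lowest value of its library at 57.4% of isolated summits and 41.6% of other summits in replicate 1, and at 56.4% and 41.6% in replicate 2. Fold enrichment divides the pileup plus 1 by this background plus 1. The part of the background in the small difference of strength was not tested.

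Median strength fell with the distance to the nearest neighbour over the closest distance classes only, and in replicate 2 it was higher again beyond 300 kb. Over consensus regions with a neighbour under 1 kb away, the median fold enrichment was 7.62 in replicate 1 and 6.88 in replicate 2. At 1 to 3 kb it was 7.20 and 6.67. From 3 kb up to 300 kb it was 6.89 and 6.12 in each of 4 distance classes, and beyond 300 kb it was 6.94 and 6.80 over 100 regions. Equal medians arise because pileups are whole numbers over a background that often sits at its lowest value. The median width of the regions was 357 bp under 1 kb, 302 bp at 30 to 100 kb, 313 bp at 100 to 300 kb and 349 bp beyond 300 kb, so it was lowest at 30 to 100 kb and not among the most distant regions. The share with 2 or more summits in both lists was 12.5% under 1 kb, 6.66% at 10 to 30 kb, 8.22% at 100 to 300 kb and 11% beyond 300 kb. The highest medians were those of the regions closest to others.

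**Figure D3:**
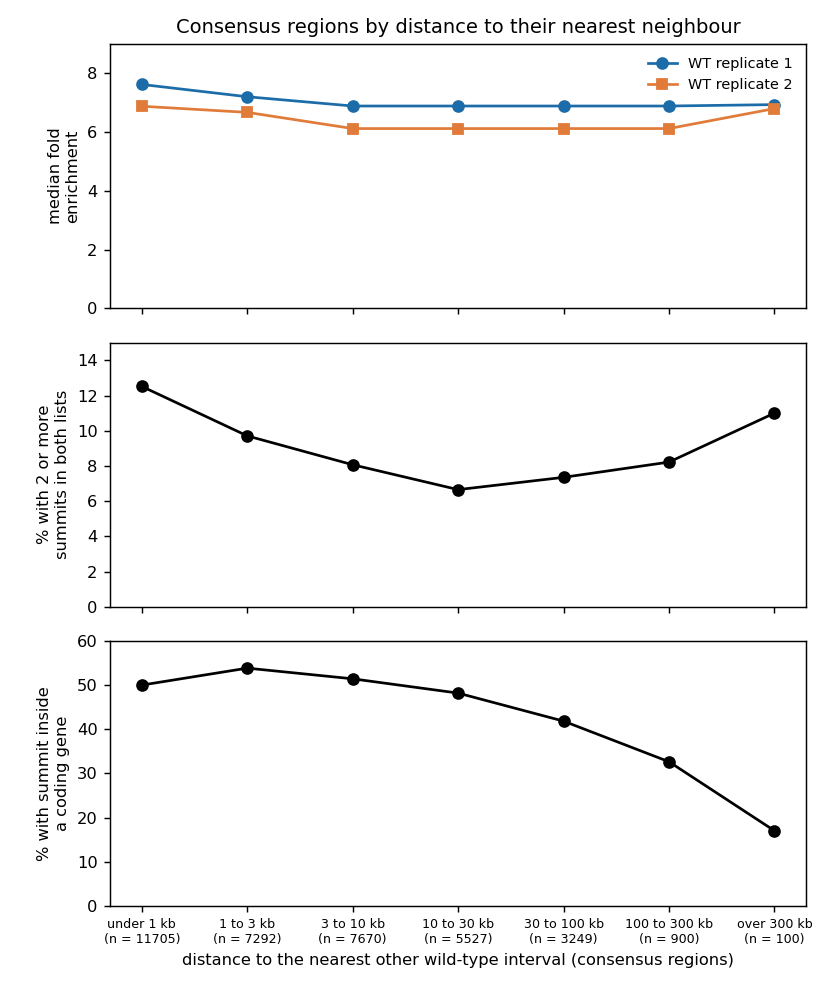
Consensus regions of chromosomes 1 to 19 by distance in kb to the nearest other WT interval, with the median fold enrichment in each replicate, the percent with 2 or more summits in both lists and the percent inside a coding gene in separate panels. Fold enrichment is highest under 1 kb (7.62 and 6.88), and the share inside a coding gene is 17% beyond 300 kb.

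Isolated regions lay farther from coding genes than the others, even though the rule asked for a gene within 300 kb. In both replicates 39.5% of the isolated summits lay inside a coding gene, against 49.8% of the others, a difference of -10.3 percentage points in each library. Both libraries were scored on the same regions, so for positions their agreement is largely fixed and their spread is no measure of replication. The median distance to the nearest coding gene was 9715 bp against 41 bp in replicate 1 and 9790 bp against 46 bp in replicate 2. The mean difference of 9709 bp became 4937 or 15050 bp with a distance limit of 50 kb or 200 kb. With only neighbours of −log10 q of at least 5 it was 3853 bp. Of the 787, 50.3% lay in or within 10 kb of a coding gene and 66.1% in or within 50 kb, where the others had 64.7% and 80.7%. No gene of any type covered 417 isolated summits, 53.0%, against 41.7% of the other summits. A long non-coding RNA gene without a coding gene covered 49, or 6.23%, against 7.84%. Over all consensus regions the share inside a coding gene was 50.1% with a neighbour under 1 kb, 53.9% at 1 to 3 kb, 51.5% at 3 to 10 kb, 48.3% at 10 to 30 kb, 41.9% at 30 to 100 kb and 32.7% at 100 to 300 kb.

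The genes around isolated regions were fewer and longer. A median of 3 coding genes lay within 300 kb of an isolated region and 5 around the others, and 46.3% against 25.3% had at most 2. The nearest coding gene was at least 300 kb long for 230 isolated regions, 29.2%, against 14.1% of the others. Of the 311 isolated regions inside a coding gene, 167 (53.7%) lay in a gene of at least 300 kb, against 19.9% of the other regions inside genes. The genes that held isolated regions had a median length of 332 kb, and those that held other regions 115 kb, counted once per region. Some 4.45% of isolated regions had 20 or more coding genes around them, close to the 5.08% of the others, so isolation also occurred in gene-dense stretches such as the olfactory receptor clusters. By the rule an isolated region needs an empty stretch on both sides, so the make-up of the surroundings is partly fixed by the choice of members.

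Gene ends and starts were seldom near. An isolated summit was 1 kb or less from a coding gene's end in 1.91% of regions in replicate 1 and 2.03% in replicate 2, against 4.58% and 4.55% of the others, a mean difference of -2.60 percentage points. With a distance limit of 50 kb or 200 kb that difference was -1.13 or -0.74, with only neighbours of −log10 q of at least 5 it was -0.78, and for 5 kb around gene ends it was -6.69. By the stronger summit there were 16 isolated regions, 2.03%, where the background was 4.56%. Coding transcription starts were nearer than 1 kb for 9 of 754 isolated regions, 1.19% (0.629 to 2.25%), against 2.99% of the others. The median distance to a coding start was 104.8 kb, against 45.1 kb. The isolated region nearest to a gene end with the highest enrichment lay 0.304 kb from Rnf5, a ubiquitin ligase gene (chr17:34603639-34604162), with 19 in replicate 1 and 17.2 in replicate 2.

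The 9 regions at coding starts were of ordinary strength. The best-ranked by its worse rank over both lists was at the Tspear gene, beside the start of Gm29802 (chr10:77735981-77736263), with fold enrichments of 13.8 and 11.6. Besides those at Gimap9, Elmo2 and Hdac9 shown above, there was one inside Dram2, an autophagy gene, beside the start of Cept1, with 6.89 and 8.84. The others were at Rab40c, a small GTPase gene (7.62 and 6.38), at the predicted gene Gm32856 (10.3 and 6.12), at the pancreatic elastase gene Cela2a (6.89 and 4.76) and at Lins1 (4.13 and 4.08). None of the 9 reached 15 in either replicate. No gene of the lists of pluripotency, neural, mesodermal or NuRD genes was among them.

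The 10 strongest isolated regions were enriched 21.1-fold or more in both lists and were 509 to 1009 bp wide, with 30 to 49 fragments at the summit. Their summits in the replicates were at most 88 bp apart. The first was 248 kb from Mettl15, a gene of mitochondrial ribosomal RNA methylation (chr2:108843604-108844520), with fold enrichments of 31.1 and 33.4 and pileups of 45 and 49 fragments. Its neighbours lay 166 kb and 308 kb away. The next was near the predicted gene Gm10267 (chr18:44142431-44142939), with 29.6 and 29.9. On chromosome 3 one region lay near S100a7l2 (chr3:91030030-91030702, 26.2 and 25.8) and one 6.93 kb from Kprp, a gene of the skin barrier (chr3:92815716-92816544, 25.5 and 27.2). The one nearest to Cdh9, a classical cadherin gene, lay 98.6 kb from it (chr15:16629304-16630195) and had 29.6 and 24.5.

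Only 2 of the 10 lay inside a coding gene. One was in Anks1b, a scaffold gene of synapses (chr10:90709219-90710045), with 24.9 and 24.1 and pileups of 48 and 47 fragments. The other was in the pheromone receptor gene Vmn2r12 (chr5:109096082-109097090), with 22.7 and 23.1. A region 5.26 kb from Tdrd9, a helicase gene of the piRNA pathway in germ cells, reached 28.1 in replicate 1 and 22.4 in replicate 2 (chr12:112073767-112074482). The last were 111 kb from Manea, a gene for a Golgi mannosidase (chr4:26457790-26458732, 23.4 and 21.1), and 185 kb from Arpp21, a gene of neurons (chr9:111879508-111880149, 22.4 and 22.1). Differences between replicates were largest at Tdrd9 and Cdh9 and smallest at Arpp21 and Gm10267. The genes nearest to these regions belong to no common list, and the nearest gene need not be the one a site acts on.

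The 5 widest isolated regions measured 1013 to 1153 bp. The widest was inside Corin, a gene for a heart protease (chr5:72464314-72465466), with fold enrichments of 13 and 15.8. The others were nearest to Sgo2b (chr8:63929128-63930223, 24.8 and 18.8), Tenm2 (chr11:37443469-37444521, 17.2 and 15.6), Gm51600 (chr8:55691755-55692769, 8.13 and 12.2) and Cdh18 (chr15:23403766-23404778, 22.7 and 18.4). Tenm2 encodes a teneurin and Cdh18 a cadherin, both adhesion proteins of neurons.

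**Figure D4:**
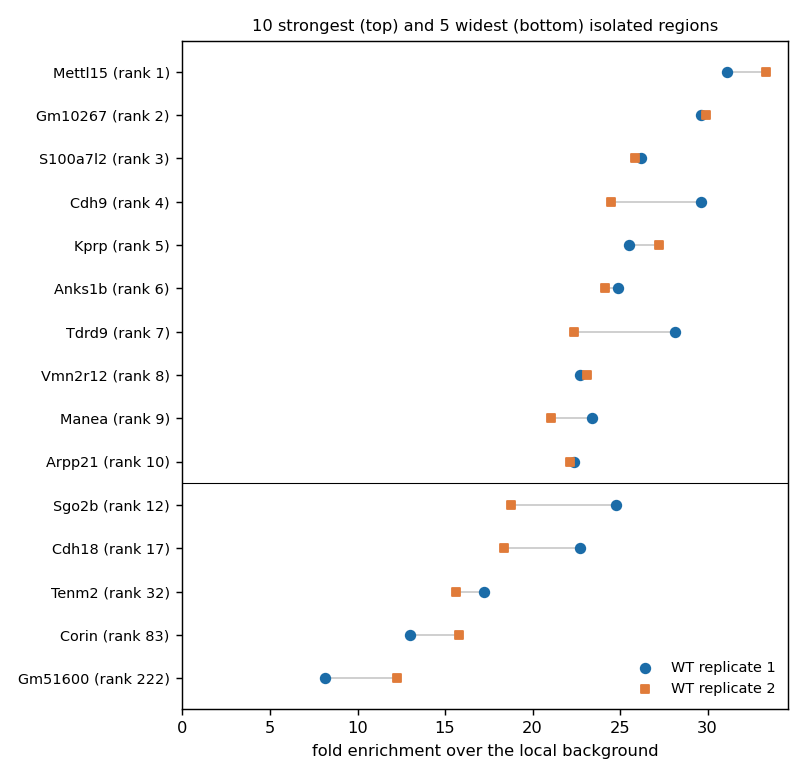
Fold enrichment (authors' ratio) in WT replicates 1 and 2 for the 10 strongest isolated regions (top) and the 5 widest (bottom), named by the nearest coding gene. The strongest reach 31.1 and 33.4 at Mettl15, and the widest, at Corin, has 13 and 15.8.

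None of the isolated regions had a pluripotency regulator as its nearest coding gene, 0 of 787, a count that allows a share of up to 0.381% (3 counts of the total, counting error only). Among the other regions the share was 0.9%, or 321 regions around 22 of the 27 listed genes. Those regions crowd around few genes, with 36 nearest to Sox2, 36 to Klf5 and 34 to Sall1, so they are not independent. By the rule, a gene surrounded by many sites leaves little room for an isolated one, but the part of this in the count was not tested. Pou5f1 was nearest to 1 other region and Lin28a and Utf1 to 0, and these genes had no isolated region either. The closest isolated summits to such genes were 133 kb from Utf1, 169 kb from Zfp42 and 215 kb from Esrrb. Sox2, Klf4 and Nanog, core regulators of the undifferentiated state, had their closest isolated summit 1443 kb, 4118 kb and 1099 kb away. For the genes of the NuRD complex, which SALL4 recruits, the count was also 0 of 787, where 0.101% of the other regions lay nearest to one. That background is below the 0.381% that a count of 0 allows, so this 0 is not set apart from it.

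Neural transcription factor genes were nearest to 11 isolated regions, 1.40% (9 genes), where the background was 0.85%. Among regions whose nearest coding gene was at least 300 kb long the order was reversed. There the list took 3 of 230 isolated regions (1.30%) and 112 of 5032 others (2.23%). The counts are small, and no excess is read from them. The best rank over both lists was inside Tshz2, a teashirt zinc-finger gene, with fold enrichments of 14.2 in replicate 1 and 11.1 in replicate 2. Near Zic1, a gene of the dorsal neural tube, they were 14.0 and 8 at 104 kb. Pou3f1, a POU gene of neural progenitors, had 11.7 and 8.84 at 297 kb. Bcl11b, a zinc-finger gene of cortical neurons, was nearest to regions at 26.9 kb (10.3 and 6.12) and 134 kb (6.89 and 8.84). Further regions were at Zfhx4 (6.61 and 9.52), inside Nfia (8.95 and 5.53), and at Sox6 (4.82 and 3.40) and Onecut1 (4.57 and 3.40). Only those at Tshz2 and Nfia lay inside their gene, and in 8 of the 11 replicate 1 was the higher.

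Among regulators of mesoderm and endoderm, 1 isolated region was counted, 0.127%, beside a background of 0.182%. It lay 266 kb from Mef2c, a gene of heart and muscle, with 8.95 and 6.12. Genes of axon guidance and secreted signals were nearest to 6, 0.762%, where the background was 0.527%. The highest of these was inside Fgf14, a gene of the fibroblast growth factor family that acts within neurons, with 10.7 in replicate 1 and 14.4 in replicate 2. These shares lie near their backgrounds at such small counts.

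Neuronal adhesion and synaptic genes were nearest to 81 isolated regions, 10.3%, where the background was 3.09%. Over the other regions that also had a coding gene within 300 kb, it was 2.32%. The 81 fell on 60 of the 113 listed genes, and 50 lay inside their gene. These genes are long, with a median of 513 kb against 17.2 kb over all 21887 coding genes, and gene length moved with the count. Among regions whose nearest coding gene was at least 300 kb long, the list took 67 of 230 isolated regions (29.1%) and 874 of 5032 others (17.4%). The strength of the 81 was ordinary, with median fold enrichments of 6.61 in replicate 1 and 6.12 in replicate 2, and ranges of 3.38 to 29.6 and 3.52 to 24.5.

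Cadherin genes stood at the top of this list, with Cdh9 and Cdh18 given above and a region inside Cdh12 (chr15:21366341-21366837) at 18.6 and 19.7. A further list held 35 cadherin and protocadherin genes, those with a number directly after Cdh or Pcdh, so the clustered protocadherins were left out. Its genes were nearest to 15 isolated regions, 1.91%, against 0.726% of the others and 0.386% of those with a coding gene within 300 kb. Robo2, a receptor of axon guidance, held a region at 14.5 and 12.9, and Lrfn5, a synaptic adhesion gene, one at 14.3 and 14.4. Among glutamate receptor genes, Gria2 was nearest to a region at 11 and 12.9 (131 kb away), and Grm5 held one at 11.5 and 9.52. Cntnap2, a neurexin-family gene of 2241 kb, held 2 regions and had another outside, the strongest at 12.4 and 9.52. Potassium channel genes were nearest to 13, 1.65%, against 0.524%, the highest being Kcnj15 with 15.2 and 10.9.

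**Figure D5:**
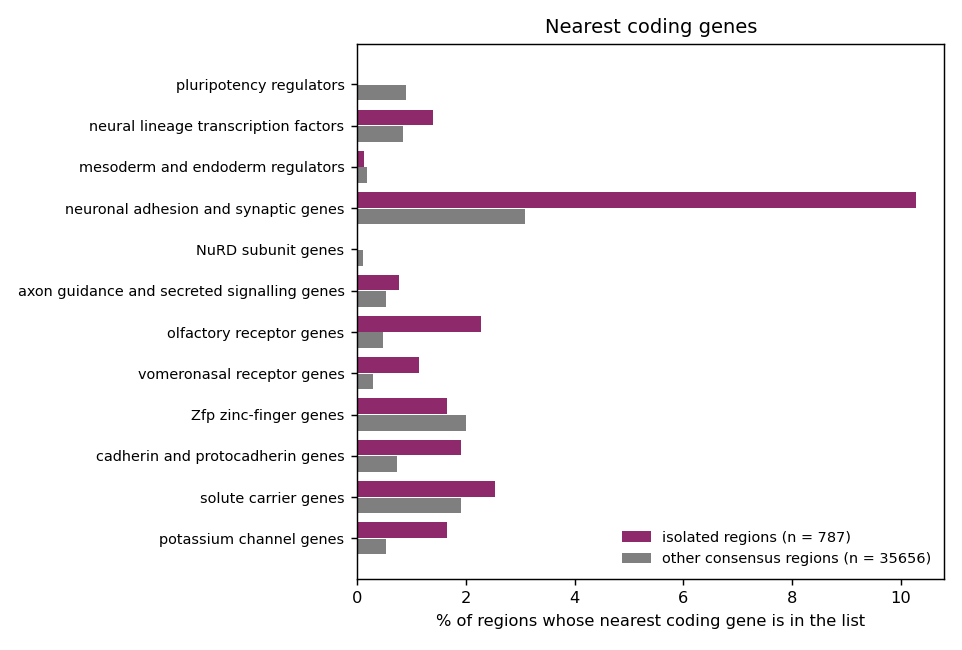
Percent of isolated (787) and of other (35656) consensus regions whose nearest coding gene belongs to each gene list drawn, as bars from 0. The lists of predicted Gm, Rik, serpin, cytochrome P450 and keratin genes are not drawn. The neuronal adhesion and synaptic genes stand at 10.3% against 3.09%, and the pluripotency regulators at 0 against 0.9%.

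Receptor genes of smell and pheromone sensing, which lie in large clusters of short genes, also made up a larger share of the nearest genes. Olfactory receptor genes were nearest to 18 isolated regions, 2.29%, where the background was 0.471%. By the worse rank over both lists, the strongest were beside Olfr536 (chr7:140519897-140520528), with 16.8 in replicate 1 and 19.7 in replicate 2, and Olfr995 (chr2:85455481-85456098), with 15.8 and 15.6. Vomeronasal receptor genes were nearest to 9, 1.14%, where the background was 0.289%. Beside Vmn2r12, the highest was Vmn2r120 (chr17:57503108-57503749), with 14.5 and 19.7. These members are near-copies of each other within clusters, and reads from copies could be placed at the wrong one. The filter on read placement is not given in the sources used here.

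Zinc-finger genes with a Zfp symbol were nearest to 13 isolated regions, 1.65%, near the background of 1.99%. The strongest was inside Zfp804a (chr2:82068859-82069675), with fold enrichments of 21.4 and 17.1, and its relative Zfp804b held one at 14.5 and 11.6 and lay nearest to another. Zfp804a is expressed in neurons. Solute carrier genes were nearest to 20, 2.54%, against 1.91%. Predicted genes with a Gm symbol were nearest to 32, 4.07%, against 1.99%. Keratin and keratin-associated genes were nearest to 3, 0.381%, against 0.0449%, and cytochrome P450 genes to 3, 0.381%, against 0.213%. Serpin genes were nearest to 1, 0.127%, against 0.121%, and genes with a Rik symbol to 9, 1.14%, against 1.42%.

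The 787 regions were spread over 707 nearest coding genes. Of these genes 640 were nearest to 1 isolated region, 56 to 2, 9 to 3 and 2 to 4. The pair with 4 each were Plcb1, a phospholipase gene of 689 kb, and Ptprt, a receptor phosphatase gene of 1139 kb. All 8 of their regions lay inside the gene. In Plcb1 the strongest region, chr2:134960496-134961105, had fold enrichments of 22.7 and 17.7, and the others had 4.06 to 8.26 in replicate 1 and 3.40 to 6.12 in replicate 2. In Ptprt they ran from 12.4 and 16.3 at chr2:162083528-162083920 down to 4.82 and 4.76. Those with 3 included Asic2, Cntnap2, Ctnna2, Ctnna3, Fat3, Kcnn2, Macrod2 and Nbea, which are 417 to 2241 kb long. Macrod2, of 1998 kb, held regions at 16.5 and 12.9, at 7.58 and 8.84 and at 6.61 and 4.02. In Plcb1, Ptprt and Macrod2 the fold enrichment differed more between the isolated regions of the gene than between the replicates at its strongest site.

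The share of consensus regions that were isolated ranged over chromosomes from 0.732% on chromosome 19 (8 of 1093) to 3.30% on chromosome 7 (59 of 1787) and 3.65% on chromosome 12 (55 of 1508). Most members by number were on chromosome 2, with 72. Over all of chromosomes 1 to 19 the share was 2.16%.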

How the data were processed

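The 4 narrowPeak lists of SALL4 CUT&RUN in mouse embryonic stem cells were used, 2 per genotype, each called on 1 sample. Per the submitters' processing notes, which give no role or order, the tools were Trim Galore 0.6.0, cutadapt 1.18, FastQC 0.11.8, BWA 0.7.17 and MACS2 2.1.1.20160309, and the builds GRCm38 and mm10. The caller's settings and control, and any filter on read placement, are not given in the sources used here. Each deposited line carries, for its summit, a fold enrichment (the authors' ratio of pileup to local background, with 1 added to both), a −log10 p and a −log10 q. The score deposited with it is 10 times that −log10 q, cut to a whole number, and the deposited summit offset counts bp from the interval's first base. All of these are the authors' values, used here for description, ranks and filters inside each list.

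Overlapping lines were merged within a list, keeping the highest fold enrichment and counting lines as summits. Pileups were recovered from fold enrichment and −log10 p with a pseudocount of 1 and were whole for 100% of lines within a tolerance of 0.0001. Total depth is unknown. Gene positions and promoter windows came from RefSeq tables of GRCm38.p6. The gene table gives no strand or exons, and transcription starts on chromosome 18 were not analysed here. Nearest means the coding gene closest to the stronger summit. Each WT library gave 1 value per measure, compared by an exact two-sided sign-flip permutation test, and no test was made over regions. Wilson 95% intervals cover counting error only.

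Members, gene lists and tests were chosen with earlier results of these data known. Regions named were the 10 strongest by their worse rank over both WT lists, the 5 widest, the 5 most distant, those within 1 kb of a coding start, those nearest to a listed gene and 3 on each side of the distance limit. Of the regions near listed genes, only the strongest of long lists are given. Values at some listed genes are not reported here. Genes nearest to 3 or more were named, and Rnf5, Zfp804a, the 2 highest olfactory receptor regions and the chromosomes were singled out after their values were seen. Planned A+T and motif measures at summits were not run because no genome sequence was used here. Alternatives changed the distance limit, the neighbours, the overlap, the q-value, the comparison set, the gene window and the replicates used. Scripts were tested on simulated data. Python 3.11.15, numpy 2.4.6, pandas 2.3.3, scipy 1.17.1 and matplotlib 3.10.9 were used.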

Additional observations from a re-analysis of the deposited data

How the results depend on the processing

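The number of isolated regions depended on its limits. It was 2059 with no other interval within 50 kb, 172 within 200 kb, 2250 when only intervals with a −log10 q of at least 5 counted as neighbours, and 414 when both lists had to reach that value. With 1 list alone it was 1434 to 1641 (without WT replicate 2 and without WT replicate 1). A reciprocal overlap of 50%, no gene condition and a gene within 100 kb gave 665, 1000 and 600. The direction of the differences in width, fold enrichment, pileup, position inside a coding gene, distance to it and distance to its ends held under every alternative run, but their sizes moved. They ranged from -28.8 to -3.5 bp in width, -0.16 to -0.03 in log2 fold enrichment, -2 to -1 fragments, -17.1 to -7.06 points inside a coding gene, -6.69 to -0.74 points near its ends and 3853 to 15050 bp in distance to it. Leaving out 1 replicate redefined the members only for the count. For the differences it gave the remaining library's value at the same regions, so those 2 alternatives were no new check of direction. The median distance between replicate summits turned to -3.5 bp with the 200 kb limit, and the difference in the share with 2 or more summits turned to 0.701 percentage points with the other regions weighted to the same strength. The cause was not tested. The summit distance has no value from 1 list, and the sequence measures with a 50 bp window were not run. No paired analysis was possible because the members are compared within WT libraries and the KO lists hold 0 intervals on chromosomes 1 to 19. With 2 libraries the sign-flip test cannot pass 0.05, and pileups near 10 fragments limit the precision of single regions.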

Other observations

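The isolated region with the highest pileup was also the last in rank. At chr1:24612696-24612810, nearest to the collagen gene Col19a1, 129 fragments were stacked in replicate 1 and 127 in replicate 2, but the local background was 38.7 and 39.5 and the fold enrichment 3.27 and 3.16. At most isolated summits the background sat at the lowest value of its library, 0.452 and 0.471.

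Within 10 kb of an isolated summit lay 3 microRNA hairpins, Mir7027 (8.14 kb), Mir1963 (6.34 kb) and Mir675 (4.25 kb). The share of other consensus regions near a hairpin is not given here, so this count cannot be called high or low. Mir675 lies in H19, an imprinted non-coding RNA gene, which was the nearest gene of any type to its region at chr7:142581396-142581550. The fold enrichment there was 3.44 in replicate 1 and 4.08 in replicate 2, at the weak end of the isolated regions. Their 5th percentile was 4.06 in replicate 1, and their 10th percentile was 4.02 in replicate 2. The region near Mir1963 had 11.7 and 4.08, so the replicates differed more there than at Mir675.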
